A study of Mus musculus with 49 samples.

Results

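Oxidative phosphorylation genes were followed in the urinary bladder, taken whole, of C57Bl/J mice. The mice were female and drank arsenate, a salt of pentavalent arsenic. They were taken by symbol: Nduf genes of the a, b, c, s and v series (complex I), Sdha to Sdhd (complex II), genes starting with Uqcr (complex III), Cox4 to Cox8 genes (complex IV) and genes starting with Atp5 (complex V). The symbols found 81 of the 18193 genes that have a probe set of their own, 35 in complex I, 4 in complex II, 8 in complex III, 17 in complex IV and 17 in complex V. Of these, 79 were among the 14624 genes bright enough to be tested. Cox7b2, a testis-type subunit of complex IV, and Ndufb4, an accessory subunit of complex I, were too dim, with mean levels of 4.59 and 5.26 in the 1-week water group on a scale whose floor is 4. A further 9 probe sets carried several gene symbols, among them those of Ndufs6 and Ndufa11, and were not used.

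The water held 0, 0.5, 2, 10 or 50 ppm of arsenate, for 1 week (mice aged 76 days) or 12 weeks (155 days). The 49 arrays gave 5 mice per group and 4 in the 0.5 ppm group of 1 week, each array holding the RNA of 1 mouse without pooling. Within a group, every mouse label starts with the same number, whose meaning is not given, so dose and that number cannot be told apart, nor can harvest and age. A level is log2(signal + 16) of a gene's brightest single-gene probe set, and a change is a difference of mean levels ± SE. A gene is called where limma's adjusted p over all 14624 genes was under 0.05. In a whole organ, fewer cells of a type and less RNA per cell cannot be told apart.

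Oxidative phosphorylation makes most of the ATP of resting tissue at the inner mitochondrial membrane. Complexes I and II pass electrons from NADH and succinate to ubiquinone, complex III hands them to cytochrome c, complex IV passes them to oxygen, and complex V, the ATP synthase, uses the proton gradient that complexes I, III and IV build. Mitochondrial DNA encodes a few core subunits, while all subunits described here are encoded in the nucleus. Arsenate is a chemical analogue of phosphate and can take its place in ATP synthesis, and the bladder meets arsenic through the urine.

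Promoters of these genes are known for binding sites of nuclear respiratory factor 1 (NRF1), of ETS factors such as GABP (NRF2), of YY1 and of estrogen-related receptors (ERR). RefSeq promoters of GRCm38.p6, from 250 bases before to 50 bases after a start, were listed for 66 of the 81 genes, 71 promoters in all. GCATGCGC (NRF1), searched on both strands, stood in 9 of the 71 (12.7%) and in 2.71% of all 32851 promoters. AAGATGGCG (YY1) stood in 6 (8.45%) and 1.4%, CCGGAAGT (ETS) in 5 (7.04%) and 3.89%, and TCAAGGTCA (ERR) in 2 (2.82%) and 0.423%. A match is a run of letters and not a binding site. The following stretches lie upstream of the start of genes that come back below, are written 5′ to 3′ on the gene's strand, and have the motif in capitals. In the Uqcrh, Atp5h and Atp5g3 stretches it is the reverse complement.
Sdhb (NRF1, chr4:140961207-140961234, plus strand): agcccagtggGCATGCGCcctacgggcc
Atp5k (NRF1, chr5:108434430-108434457, minus strand): tcactgcggcGCATGCGCctttctggct
Ndufa8 (NRF1, chr2:36049339-36049356, minus strand): cgctggagacGCATGCGC
Ndufa6 (NRF1, chr15:82354357-82354384, minus strand): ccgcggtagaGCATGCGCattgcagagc
Uqcrh (ETS, chr4:116075071-116075091, minus strand): agtatgccgcACTTCCGGcca
Atp5h (ETS, chr11:115419941-115419968, minus strand): caaggagagaACTTCCGGcaactctctt
Uqcr11 (ETS, chr10:80406870-80406897, minus strand): tctctcctccCCGGAAGTagatgtcaat
Atp5j (YY1, chr16:84835046-84835074, minus strand): aagtgtaggaAAGATGGCGgagtcttagc
Atp5g3 (ERR, chr2:73911360-73911388, minus strand): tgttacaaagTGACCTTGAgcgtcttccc
In Atp5k the NRF1 letters overlap their own reverse complement, so that both strands hold a match. The stretches of Sdhb, Atp5k, Ndufa8 and Ndufa6 share these letters at 54, 48, 8 and 83 bases before the start.

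Before the results, several measures of the arrays are given because they moved with harvest or dose. Poly-A control transcripts, added to the RNA before labelling, had group mean levels of 10.67 to 11.05 at 1 week. At 12 weeks they were 10.71 in water, 10.30 at 0.5 ppm, 10.21 at 2 ppm, 9.65 at 10 ppm and 9.84 at 50 ppm. Hybridization controls ranged over group means of 11.59 to 11.84 at 1 week and 11.20 to 11.76 at 12 weeks. The lowest mean RNA integrity number, 8.16, was that of 2 ppm at 1 week, against 9.28 in its water group, and 2 arrays of 10 ppm at 1 week have none. Markers of bladder were bright: 14 of 14 smooth muscle and 14 of 14 superficial urothelium markers passed the filter.

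**Figure D1:**
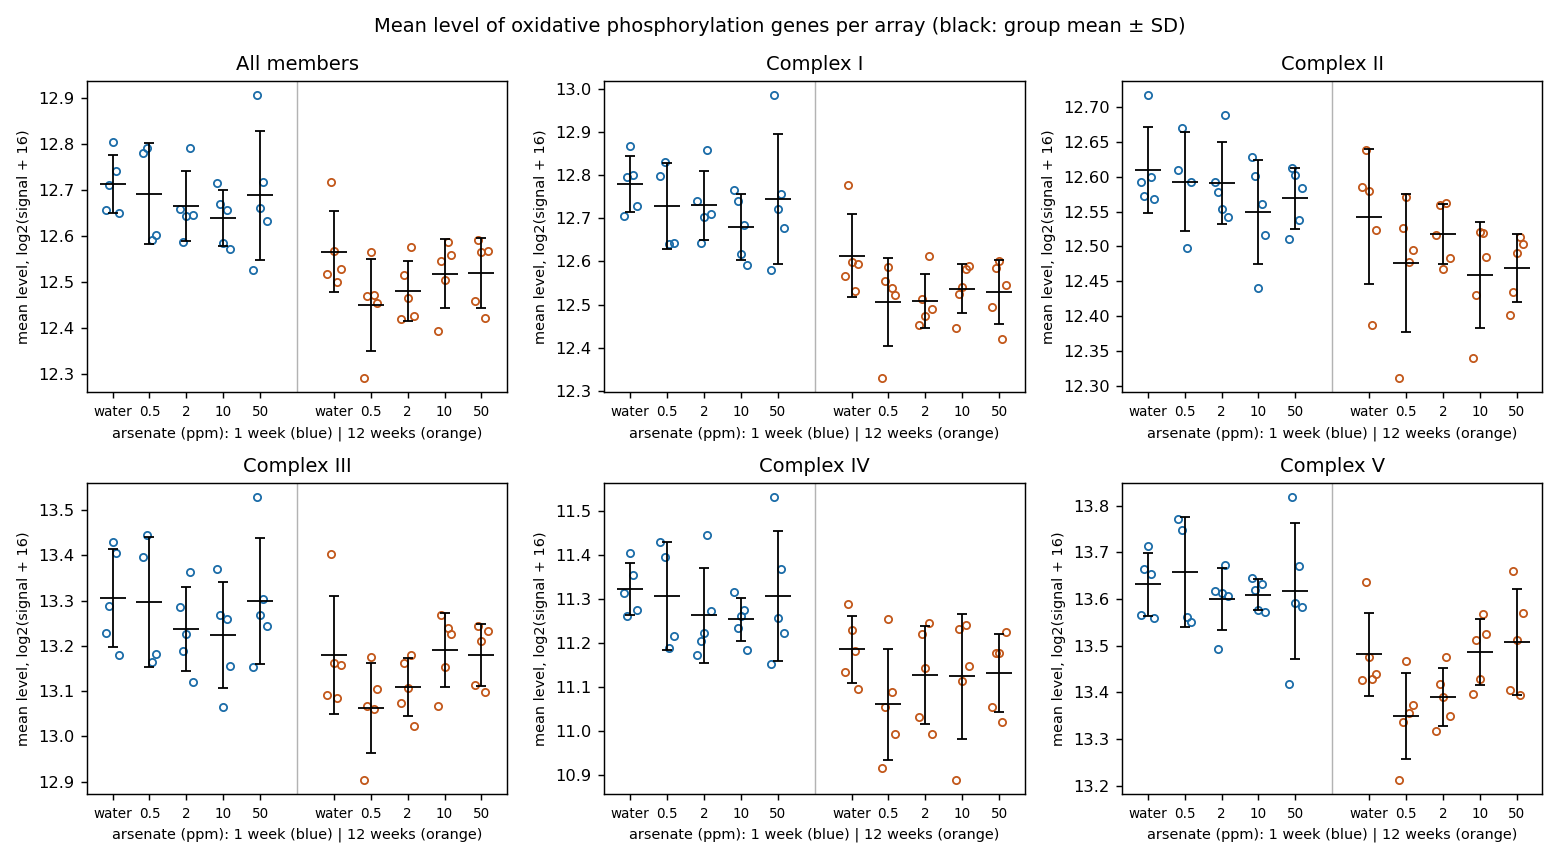
Mean level per array, log2(signal + 16), of the 79 oxidative phosphorylation genes and of each complex, by arsenate dose in ppm and harvest (blue 1 week, orange 12 weeks). Points are mice and black marks group means ± SD. Over all 79 genes, the 1-week groups average 12.64 to 12.71 and the 12-week groups 12.45 to 12.57, and single mice of both harvests overlap between 12.53 and 12.72.

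After 1 week, no oxidative phosphorylation gene passed the test at any dose. The mean level over the 79 genes was 12.71 ± 0.063 (SD, n = 5) in water, 12.69 ± 0.11 at 0.5 ppm (n = 4), 12.66 ± 0.075 at 2 ppm, 12.64 ± 0.061 at 10 ppm and 12.69 ± 0.14 at 50 ppm (n = 5 each). The means differed by about as much as single mice of a group did, and all groups overlapped with water. Among all genes, the calls were as rare: 0.0479% at 0.5 ppm, 0% at 2 ppm, 0.78% at 10 ppm and 0.335% at 50 ppm. At an unadjusted p under 0.05, the count was 0 of 79 at 0.5 ppm and 0 at 2 ppm, where 12.5% and 5.93% of all genes passed. At 10 ppm 2 genes were higher and 8 lower, against 17.1% of all genes in either direction. At 50 ppm 0 were higher and 4 lower, against 11.5%.

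The genes of smallest p at 1 week came from complexes I, IV and V. At 0.5 ppm they were Ndufs8, an iron-sulfur subunit of complex I (-0.26 ± 0.13, adjusted p = 0.409), and Cox7a1, the heart and muscle form of a small complex IV subunit (-0.30 ± 0.155, adjusted p = 0.431). At 2 ppm they were Ndufa4 (-0.19) and Ndufa6 (-0.16), both with an adjusted p of 0.873. At 10 ppm Ndufs7, which carries the last iron-sulfur cluster before ubiquinone, differed from water by -0.25 (adjusted p = 0.156) and Cox6b2, a testis-type complex IV subunit, by -0.49 (adjusted p = 0.0829). At 50 ppm Ndufa5, an accessory subunit of the matrix arm of complex I, differed by -0.22 (adjusted p = 0.197) and Atp5mpl, a small protein of the membrane part of ATP synthase, by -0.21 (adjusted p = 0.257). None of these 8 passed. Ndufs8 rests on its brightest probe set: over the mean of its probe sets the 0.5 ppm change was 0.02.

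The complexes stood close to water at 1 week. At 10 ppm the median change was -0.11 in complex I, with 30 of 34 genes below water, -0.14 in complex II, -0.09 in complex III, -0.02 in complex IV and -0.02 in complex V. At 50 ppm the medians ran from -0.04 (complex I) to 0.01 (complex IV). A slope over the 5 dose ranks, water to 50 ppm, called 0 of the 79 genes and 0.267% of all. At an unadjusted p under 0.05, 4 had a slope, all downward, against 9.72% of all genes. The smallest p-values belonged to Ndufa5 (-0.05 per rank, adjusted p = 0.249) and Ndufa10 (-0.05 per rank, adjusted p = 0.277), both accessory subunits of complex I.

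After 12 weeks, 1 of the 79 genes passed the test at 50 ppm, and none at the lower doses. It was Ndufb10, an accessory subunit of the membrane arm of complex I. In water its levels were 12.66, 12.95, 12.83, 12.67 and 12.70, and at 50 ppm 12.46, 12.61, 12.55, 12.35 and 12.32. Every mouse at 50 ppm lay below every mouse on water. The change was -0.30 ± 0.087 (adjusted p = 0.0453), beside 4.06% of all genes called at this dose. Its level at 10 ppm was 12.54, 12.29, 12.42, 12.47 and 12.44, also below all water mice, with a change of -0.33 and an adjusted p of 0.0757. The changes at 0.5 and 2 ppm were -0.15 and -0.16, while at 1 week the 4 doses gave -0.05, -0.04, -0.05 and 0.04. Counting both directions, 2.53% of the 79 genes and 5.85% of all genes had no overlap with water at 50 ppm and 12 weeks. At 10 ppm and 12 weeks these shares were 3.8% and 3.2%. The Ndufb10 call at 50 ppm is near the threshold: it was lost in 7 of 10 fits that left out 1 mouse (water replicates 2, 3 and 5, and 50 ppm replicates 1, 2, 4 and 5), with adjusted p-values up to 0.141. Only 1 probe set measures it.

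The unadjusted p-values at 50 ppm and 12 weeks named 4 genes higher and 9 lower, against 24.1% of all genes, and 50 of 79 changes were below 0, against 54.5% of all genes, with a median of -0.04 in both. By complex, the median was -0.08 in complex I, -0.07 in complex II, -0.02 in complex III, -0.01 in complex IV and 0.06 in complex V. The smallest p in each complex after Ndufb10 belonged to Cox7a2l, a factor that joins complexes III and IV into supercomplexes (-0.32 ± 0.097, adjusted p = 0.0556), Atp5mpl (0.25 ± 0.076, adjusted p = 0.0599), Sdhc, a membrane anchor of complex II (-0.20 ± 0.096, adjusted p = 0.201), and Uqcrb, a small subunit of complex III (0.08 ± 0.083, adjusted p = 0.56). None of these 4 passed. In the fit with the poly-A level, Cox7a2l and Sdhc turned to 0.04 and 0.06, and Uqcrb turned sign in 4 alternatives. At this dose 11 of 14 smooth muscle markers were higher at an unadjusted p under 0.05, with a median of 0.34 and 1 called, Synm (0.96, adjusted p = 0.0337), and their mean level was 13.54 to 13.91 against 13.02 to 13.46 in water. With that level in the fit, and also with the poly-A level in the fit, no oxidative phosphorylation gene was called at 50 ppm.

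At the lower doses of 12 weeks no gene passed, but the changes leaned below water. At 0.5 ppm 65 of 79 changes were below 0, against 49.9% of all genes, with a median of -0.14. At 2 ppm it was 66 of 79, against 50.9%, with a median of -0.10. Both doses share the water group with each other and with the higher doses. At an unadjusted p under 0.05, 20 genes at 0.5 ppm and 13 at 2 ppm passed, all lower, beside 19% and 9.91% of all genes in either direction, of which 0.527% and 0.0137% passed the adjusted test. At 10 ppm 48 were below 0, against 54.8%, with a median of -0.03; 2 genes were higher and 11 lower at an unadjusted p under 0.05 (16% of all genes; 0.335% after adjustment).

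The smallest p-values at 0.5 ppm were those of Atp5d, the delta subunit in the central stalk of ATP synthase (-0.27, adjusted p = 0.0785), and Ndufv3, an accessory subunit of the NADH-binding module (-0.23, adjusted p = 0.0986). At 2 ppm they were those of Atp5d (-0.24, adjusted p = 0.443) and Ndufb7, an accessory subunit of the membrane arm (-0.26, adjusted p = 0.451). At 10 ppm Cox6b2 followed Ndufb10, at -0.46 with an adjusted p of 0.107. The poly-A level of the 0.5 and 2 ppm groups differed from that of water by -0.41 and -0.50, and with it in the fit their medians were -0.06 and -0.02, while that at 10 ppm was 0.20 in place of -0.03. Cell markers moved at these doses too. At 0.5 ppm the mean level of the smooth muscle markers differed from water by 0.33 (1 of 14 called, higher), that of the fibroblast markers by 0.33 (0 of 10 called), that of the brown adipocyte markers by 0.46 (1 of 5 called, higher) and that of the superficial urothelium markers by -0.22 (0 of 14 called). At 2 ppm these differences were 0.09, 0.12, 0.42 and -0.06. The brown adipocyte level, 7.14 to 7.36 at 0.5 ppm and 7.12 to 7.32 at 2 ppm, did not overlap that of water, 6.58 to 7.04. Their part in the changes was not tested.

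**Figure D2:**
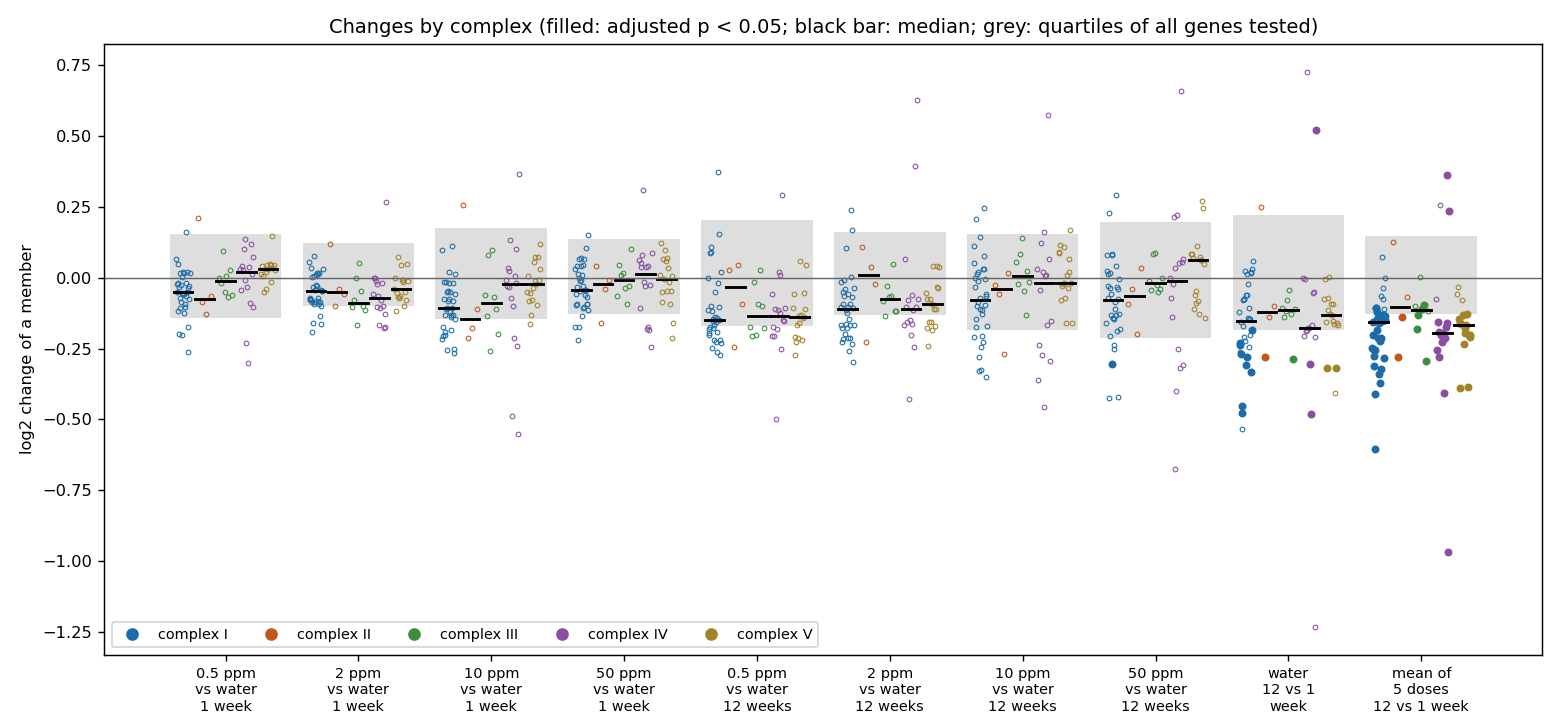
Log2 change of each oxidative phosphorylation gene against water of the same harvest, and of the harvest comparisons, grouped by complex I to V; filled points have an adjusted p under 0.05, black bars are medians and grey shows the quartiles of all 14624 genes. Against water, only Ndufb10 at 50 ppm and 12 weeks is filled, while 63 points are filled in the comparison of 12 weeks with 1 week over the 5 doses.

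The slope over dose ranks at 12 weeks called 3 of the 79 genes, beside 5.26% of all. Ndufb10 fell by 0.079 ± 0.02 per rank (adjusted p = 0.0222). Cox6b2 fell by 0.114 ± 0.03 per rank (adjusted p = 0.0285): its levels were 9.34, 9.40, 9.11, 9.38 and 9.37 in water and 9.27, 8.89, 8.90, 8.68 and 8.87 at 50 ppm, where 1 mouse lay among the water mice. Atp5mpl rose by 0.08 ± 0.019 per rank (adjusted p = 0.0173). At an unadjusted p under 0.05, 11 slopes were upward and 12 downward, against 22.5% of all genes. The count ranged from 1 to 9 over fits that left out 1 mouse. It was 1 without 50 ppm replicate 4 or 5, 5 without water replicate 1 or 4, 10 ppm replicate 4 or 50 ppm replicate 3, and 9 without 0.5 ppm replicate 1. Cox6b2 and Ndufb10 lost the call in the first 2 of these fits and without water replicate 2.

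Atp5mpl was also the member whose response to 50 ppm differed between harvests. At 1 week its levels were 13.11, 13.21, 13.34, 13.32 and 13.22 in water and 12.82, 13.19, 12.97, 13.07 and 13.11 at 50 ppm, where all but 1 of the mice lay below the lowest water mouse. At 12 weeks they were 12.86, 13.10, 12.92, 12.85 and 12.88 in water and 13.03, 13.31, 13.09, 13.14 and 13.28 at 50 ppm, and only water replicate 2 overlapped the treated mice. The changes were -0.21 and 0.25, neither called alone, and their difference was 0.46 ± 0.104 (adjusted p = 0.00753). Ndufv3 differed in the other direction, with a change of 0.15 at 1 week and -0.18 at 12 weeks and a difference of -0.33 ± 0.108 (adjusted p = 0.0476). Its 50 ppm levels were 13.01, 13.50, 13.05, 13.22 and 13.15 at 1 week, and 12.76, 12.97, 12.92, 12.82 and 13.09 at 12 weeks. The Ndufv3 call was lost in 14 of 20 fits that left out 1 mouse, with adjusted p-values up to 0.134; Atp5mpl kept it in all 20. These 2 calls stood beside 7.36% of all genes, and 3 genes higher and 4 lower at an unadjusted p under 0.05 beside 25.1%.

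The sizes set a bound on the differences between groups in the fits without a covariate. In 76 of the 79 genes all 8 changes against water lay within 0.5 log2 units. The 95% interval of a change lay inside a 1.5-fold rise or fall for 70 to 76 of the 79 genes, depending on the comparison. The genes outside it were mostly dim or variable ones, Cox8b, Cox6a2 and Cox7c at each dose and harvest. With the poly-A level in the fit, the 12-week medians were 0.20 at 10 ppm and 0.15 at 50 ppm, in place of -0.03 and -0.04. These intervals therefore do not bound the effect of dose apart from such measures.

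Between the harvests, more oxidative phosphorylation genes were called than between a dose and water. The medians were less distinct: 0.5 ppm against water at 12 weeks had -0.14, and 10 ppm between harvests -0.11. In the water groups alone, 15 of 79 genes were lower and 1 higher at 12 weeks than at 1 week, beside 13.4% of all genes called and 7.09% called lower. Below 0 were 69 of 79 changes, against 47% of all genes, with a median of -0.14 where all genes had 0.02. At an unadjusted p under 0.05, 3 genes were higher and 25 lower, beside 27.7% of all genes.

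Ndufa5 had the smallest p of the members in this comparison. Its water levels were 12.44, 12.61, 12.62, 12.56 and 12.51 at 1 week and 12.25, 12.38, 11.86, 11.84 and 12.01 at 12 weeks, without overlap, a fall of 0.48 ± 0.093 (adjusted p = 0.000406). Counting both directions, 12.7% of the 79 genes and 9.53% of all genes had no overlap between the water groups. Ndufa4, filed by its name under complex I but nowadays counted as a subunit of complex IV, fell by 0.45 ± 0.092 (adjusted p = 0.000726). Ndufs7 fell by 0.33 ± 0.092 (adjusted p = 0.0118). In complex II, Sdhb, the iron-sulfur subunit, had levels of 13.39, 13.41, 13.62, 13.42 and 13.36 at 1 week and 13.11, 13.34, 13.20, 13.10 and 13.05 at 12 weeks, again without overlap, a fall of 0.28 ± 0.091 (adjusted p = 0.0343). Its flavoprotein partner Sdha stood at 0.25 (adjusted p = 0.152), the anchors Sdhc and Sdhd at -0.14 and -0.10, none of them called.

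In complexes IV and V of the water mice, Cox7a1 fell by 0.48 ± 0.133 (adjusted p = 0.0115). Its levels were 8.23, 8.16, 8.44, 8.75 and 7.97 at 1 week and 7.99, 8.07, 7.70, 7.67 and 7.71 at 12 weeks, and overlapped by the lowest mouse of 1 week. Cox8c, a testis-type subunit, rose by 0.52 ± 0.156 (adjusted p = 0.0195), although its second probe set gave 0.02. Atp5mpl fell by 0.32 (adjusted p = 0.00267). Atp5d levels were 13.81, 14.02, 13.82, 13.84 and 13.89 at 1 week and 13.45, 13.77, 13.56, 13.55 and 13.45 at 12 weeks, a fall of 0.32 with every 12-week mouse below every 1-week mouse. Of all genes, 9.53% had no overlap in this comparison. The number called ranged from 8 to 21 over fits that left out 1 mouse, the lowest without 1-week replicate 4 and others of 9 or 10 without 1-week replicate 2 or 12-week replicate 1, 3 or 5. Sdhb lost its call in 7 of those 10 fits, Cox8c in 2 and Cox7a1 in 1. With the hybridization level in the fit 6 genes were called, and with the smooth muscle level 3.

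The same comparison can be made at each dose, with no array shared between the 5 doses. It was added after the water result had been seen. At 0.5 ppm 28 genes were lower and none higher (9.52% of all genes called), at 2 ppm 21 lower (8.06%), at 10 ppm 12 lower and 1 higher (10.8%) and at 50 ppm 24 lower and 1 higher (19.5%). The medians were -0.23, -0.19, -0.11 and -0.15. With the RNA integrity number in the fit the calls fell to 1 at 2 ppm and 3 at 10 ppm, and at 2 ppm none was left without arrays of a number under 8. With the poly-A level, 14 genes at 0.5 ppm, 4 at 2 ppm and 2 at 50 ppm were called, all lower, and at 10 ppm 6 were called higher and 5 lower with a median of 0.08. Lower at each of the 5 doses were 49 of 79 genes (62%), against 12.4% of all genes. The count was 21 of 34 in complex I, 1 of 4 in complex II, 5 of 8 in complex III, 11 of 16 in complex IV and 11 of 17 in complex V. A further 20 genes were lower at 4 doses, and 1 was higher at all 5.

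Some genes differed between harvests by more at certain doses. Among the genes that passed the test, the largest falls at 0.5 ppm were those of Atp5md, a small protein of the ATP synthase membrane part (-0.60), Atp5d (-0.54), Atp5mpl (-0.49) and Ndufa2, a matrix-arm accessory subunit (-0.46). At 2 ppm they were those of Ndufa4l2 (-0.75), Cox7a1 (-0.56), Atp5d (-0.51) and Ndufb7 (-0.51). At 10 ppm they were Ndufa5 (-0.45), Atp5pb, the b subunit of the outer stalk (-0.44), Ndufa1 (-0.43) and Ndufb7 (-0.37), while Uqcrc1, a core protein of complex III, rose by 0.32. At 50 ppm they were Ndufa4l2 (-0.97), Cox7a1 (-0.55), Cox6b2 (-0.55) and Ndufa5 (-0.46), and Cox7c rose by 0.79. Cox8b had larger but uncalled changes of -1.28 at 0.5 ppm, -0.97 at 10 ppm and -0.92 at 50 ppm, and at 10 ppm Cox4i2 (-0.54) and Ndufa4l2 (-0.52) also did not pass. Whether the changes differ between doses was not tested. Uqcrc1 gave -0.23, 0.02 and -0.01 at 0.5, 2 and 50 ppm. Its call at 10 ppm was lost in 6 of 10 fits that left out 1 mouse, and with the RNA integrity number in the fit. Cox7c, with a mean level of 6.48, lost its call at 50 ppm in 8 of 10 such fits. It also lost that call under several alternatives, quantile normalization and the poly-A level among them.

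Averaged over the 5 doses, 61 of the 79 genes were lower at 12 weeks and 2 higher, beside 37.7% of all genes called and 19.3% called lower. Changes below 0 were found in 73 genes, against 47.6% of all genes. The median was -0.16, a signal 10.5% lower, with quartiles of -0.23 and -0.11, where all genes had a median of 0.01 and quartiles of -0.13 and 0.15. The mean level over the genes ran from 12.53 to 12.91 at 1 week (median 12.66, 24 mice) and from 12.29 to 12.72 at 12 weeks (median 12.51, 25 mice), so mice of both harvests overlapped. The count kept between 59 and 66 when 1 mouse was left out.

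**Figure D3:**
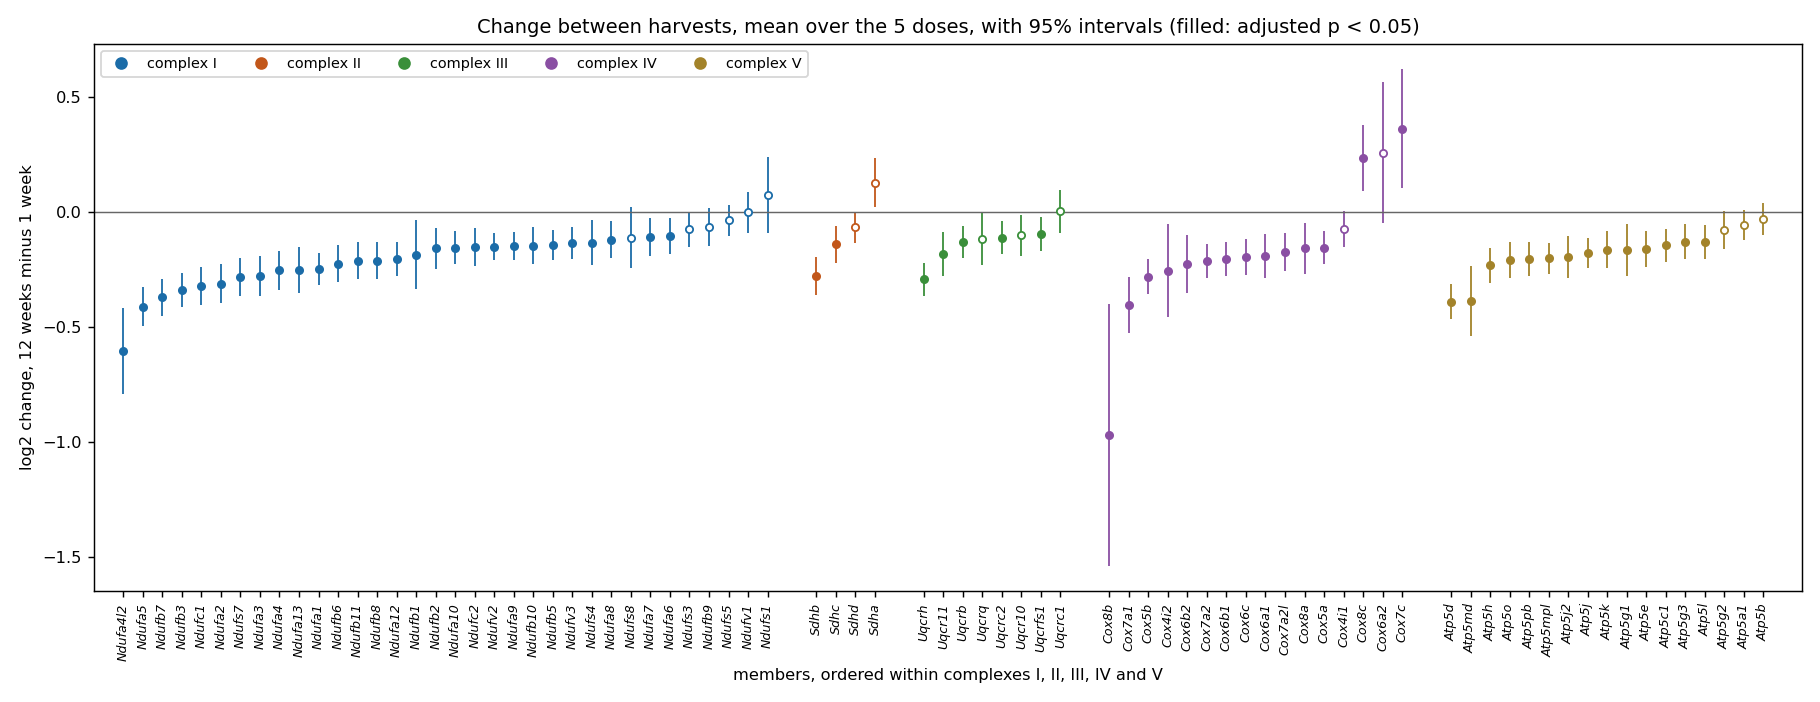
Log2 change between harvests, 12 weeks minus 1 week, as the mean over the 5 doses, for each of the 79 genes in order within complexes I to V, with 95% intervals; filled points have an adjusted p under 0.05. Most points lie between 0 and -0.4, Cox8b at -0.97 has the widest interval, and Cox7c (0.36) and Cox8c (0.23) are the 2 filled points above 0.

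In complex I, which has the most members, 28 of 34 genes were lower, with a median of -0.16. Among accessory subunits, Ndufa5 fell by 0.41 ± 0.042 (adjusted p = 1.13e-10), a signal change of -24.8%. Over all doses it ran from 12.17 to 12.62 at 1 week (median 12.44) and from 11.60 to 12.38 at 12 weeks (median 12.02). The membrane-arm subunits Ndufb7, Ndufb3 and Ndufc1 fell by 0.37, 0.34 and 0.32, and the matrix-arm subunit Ndufa2 by 0.31. Ndufa4 fell by 0.25 (adjusted p = 4.07e-06), Ndufb10 by 0.15 and Ndufv3 by 0.14. Of the core subunits, several of which carry the flavin or iron-sulfur clusters, Ndufs7 (-0.28) and Ndufv2 (-0.15) passed. Ndufs8 (-0.11), Ndufs3 (-0.08), Ndufv1 (-0.002), which binds NADH, and Ndufs1 (0.07), the largest subunit, did not pass. The accessory subunits Ndufb9 (-0.06) and Ndufs5 (-0.04) did not pass either.

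In complex II, Sdhb fell by 0.28 ± 0.041 (adjusted p = 6.13e-07) and Sdhc by 0.14 ± 0.04 (adjusted p = 0.00514), while Sdhd stood at -0.07 (adjusted p = 0.115) and Sdha at 0.13 (adjusted p = 0.0537). Sdhb ran from 13.03 to 13.63 at 1 week (median 13.36) and from 12.60 to 13.34 at 12 weeks (median 13.05). Sdha has 4 probe sets, and the 3 with a mean level of 8 or more gave 0.13, -0.07 and 0.11. In complex III 5 of 8 genes were lower, with a median of -0.12. Uqcrh, the acidic hinge protein that helps cytochrome c1 meet cytochrome c, fell by 0.29 ± 0.035 (adjusted p = 5.43e-09). The small subunits Uqcr11 and Uqcrb fell by 0.18 and 0.13, the core protein Uqcrc2 by 0.11 and the Rieske iron-sulfur protein Uqcrfs1 by 0.10. Uqcrq (-0.12), Uqcr10 (-0.10) and Uqcrc1 (0.003) did not pass.

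In complex IV 12 of 16 genes were lower and 2 higher, with a median of -0.19. The ubiquitous subunits Cox5b (-0.28 ± 0.038), Cox7a2 (-0.21), Cox6b1 (-0.20), Cox6c (-0.20), Cox6a1 (-0.19), Cox8a (-0.16) and Cox5a (-0.16) fell, and Cox7a2l by 0.17. Cox4i1, the common form of a large nuclear-encoded subunit, did not pass (-0.07, adjusted p = 0.127). Cox7c, whose only single-gene probe sets are dim, rose by 0.36 ± 0.129 (adjusted p = 0.0233), from a median of 6.25 at 1 week to 6.65 at 12 weeks with broad overlap, and Cox8c rose by 0.23 ± 0.071 (adjusted p = 0.00741). Both lost the call under quantile normalization.

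In complex V 14 of 17 genes were lower, with a median of -0.17. Atp5d fell by 0.39 ± 0.038 (adjusted p = 2.46e-11), from a median of 13.81 (range 13.61 to 14.11) to 13.37 (13.04 to 13.77). Atp5md fell by 0.39 ± 0.076 (adjusted p = 7.04e-05). Subunits of the outer stalk followed, Atp5h by 0.23, Atp5o by 0.21, Atp5pb by 0.20 and Atp5j by 0.18. Of the central stalk, Atp5e fell by 0.16 and Atp5c1 by 0.15. The membrane subunits Atp5mpl, Atp5j2, Atp5k and Atp5l fell by 0.20, 0.20, 0.17 and 0.13. Among the genes of the c ring, Atp5g1 (-0.16) and Atp5g3 (-0.13) passed and Atp5g2 (-0.08) did not. The subunits of the catalytic head, Atp5a1 (-0.06, adjusted p = 0.155) and Atp5b (-0.03, adjusted p = 0.496), did not pass. Noticed after the values were seen, the genes that missed the call include several of the larger nuclear-encoded subunits (Ndufs1, Ndufv1, Sdha, Uqcrc1, Cox4i1, Atp5a1 and Atp5b). Other large subunits were called lower, Uqcrc2 and Ndufa10 among them, and small ones such as Uqcr10 and Uqcrq also missed the call. Whether large and small subunits differ was not tested.

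**Figure D4:**
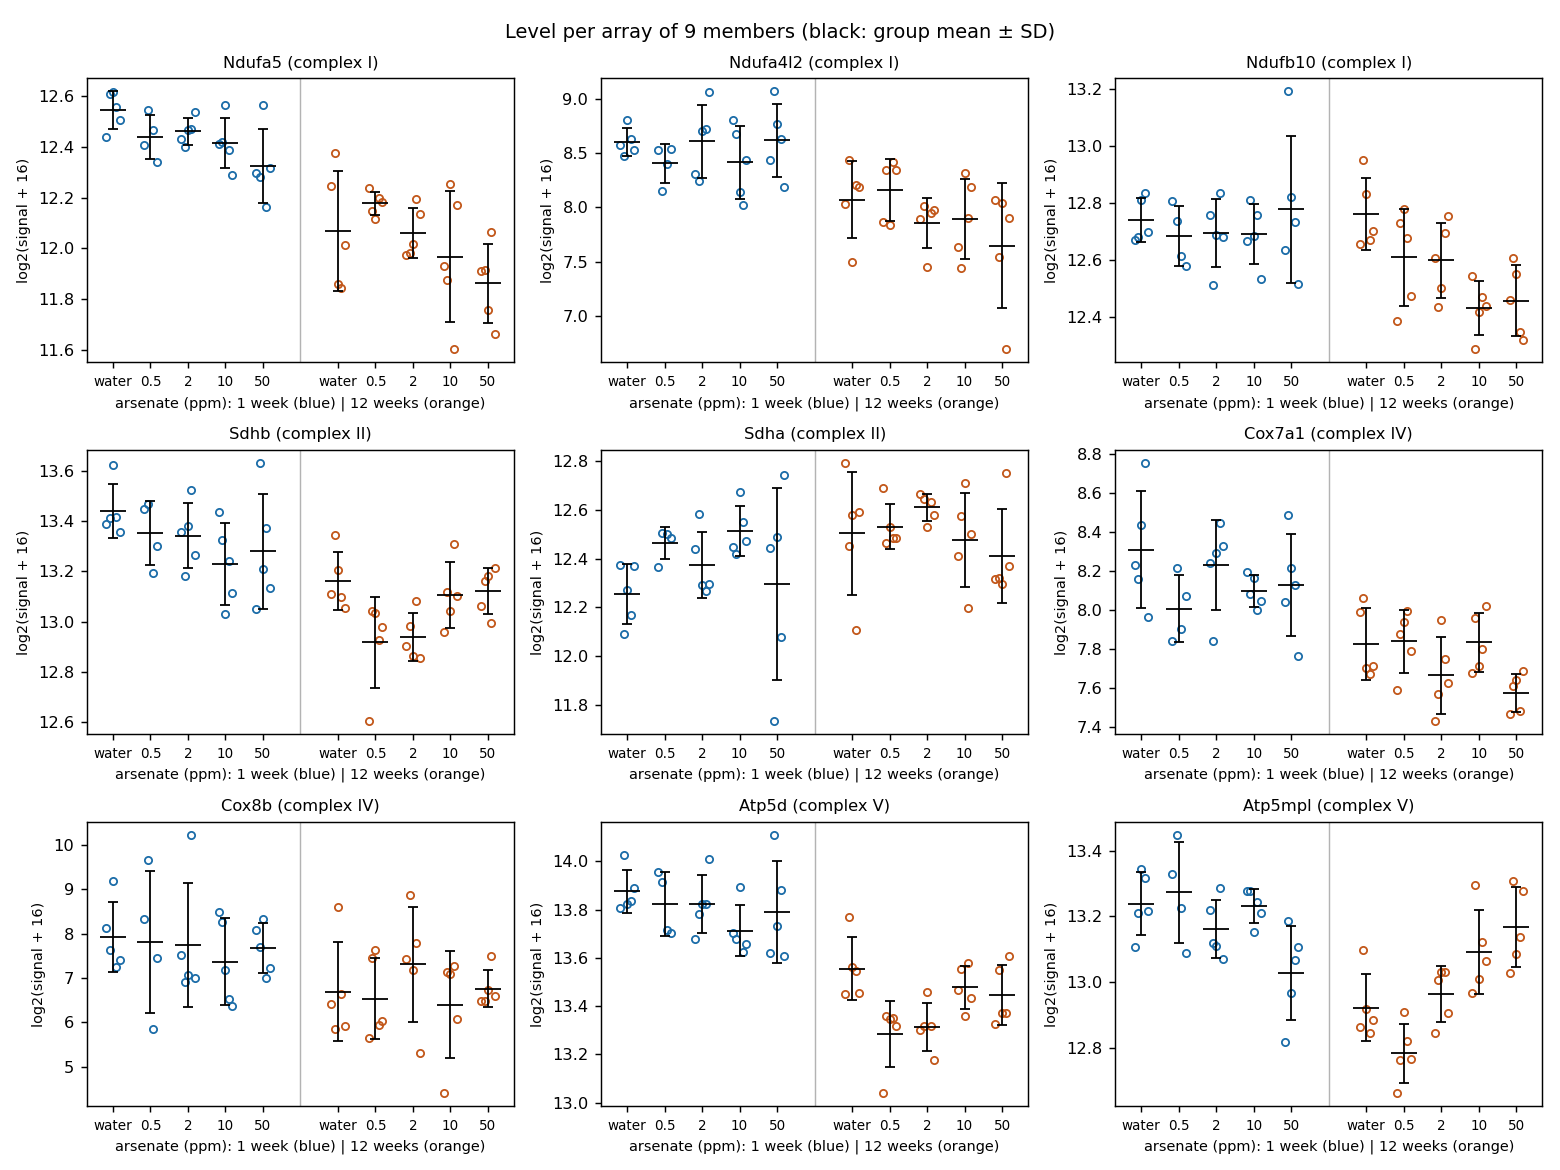
Level per array, log2(signal + 16), of 9 oxidative phosphorylation genes by arsenate dose in ppm and harvest (blue 1 week, orange 12 weeks); points are mice and black marks group means ± SD. The Ndufa5 points of 1 week run from 12.17 to 12.62 and those of 12 weeks from 11.60 to 12.38, and the Ndufb10 points at 50 ppm and 12 weeks lie below those of water.

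A second probe set was available for part of these genes. Of 39 genes with at least 2 probe sets of a mean level of 8 or more, 36 had all of them below 0 in the mean over doses, and Ndufa12, Sdha and Sdhd had both signs. The sizes were less alike: Atp5d gave -0.39 and -0.11, Ndufa5 -0.41 and -0.20, Ndufs7 -0.28 and -0.10, Uqcrh -0.29 and -0.18, and Ndufb7 -0.37 and -0.26. Ndufb10, Ndufv3, Sdhb, Cox7a1, Cox8b, Ndufa4, Ndufa4l2, Cox6b2, Atp5mpl and Atp5md have 1 single-gene probe set each.

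Paired isoforms differ in the tissue or oxygen level at which they are made, and their changes between harvests are given side by side. For Ndufa4 and Ndufa4l2, a paralogue induced by hypoxia, they were -0.25 and -0.60 ± 0.093 (adjusted p = 1.34e-06). Ndufa4l2 ran from 8.02 to 9.07 at 1 week (median 8.54) and from 6.69 to 8.44 at 12 weeks (median 7.98). At 50 ppm and 12 weeks its change of -0.42 did not pass (adjusted p = 0.254), with levels of 8.07, 7.55, 8.04, 6.69 and 7.90 against 8.03, 8.44, 7.496, 8.21 and 8.19. For Cox7a2 and the muscle form Cox7a1 the changes were -0.21 and -0.41 ± 0.06 (adjusted p = 6.95e-07). For Cox8a and the muscle form Cox8b they were -0.16 and -0.97 ± 0.283 (adjusted p = 0.00583), and Cox8b varied most of all members, from 5.84 to 10.23 at 1 week and from 4.40 to 8.88 at 12 weeks. For Cox6a1 and the muscle form Cox6a2 they were -0.19 and 0.26 (adjusted p = 0.184), for Cox4i1 and the lung and hypoxia form Cox4i2 -0.07 and -0.26 (adjusted p = 0.0399), and for Cox6b1 and Cox6b2 -0.20 and -0.23.

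In water alone, the isoforms showed changes of -0.45 (Ndufa4) and -0.53 (Ndufa4l2, adjusted p = 0.0741), -0.48 (Cox7a1) and -0.17 (Cox7a2), and -1.23 ± 0.626 (Cox8b, adjusted p = 0.191) and -0.21 (Cox8a). Cox8b levels were 8.14, 7.64, 9.20, 7.24 and 7.40 at 1 week and 6.42, 5.85, 8.60, 6.65 and 5.92 at 12 weeks, 1 of which lay among the 1-week mice. At 50 ppm and 12 weeks no isoform passed: Cox6a2 stood at -0.67 (adjusted p = 0.162), Cox7a1 at -0.25 (adjusted p = 0.245), Cox6b2 at -0.40 ± 0.136 (adjusted p = 0.0807), Cox8c at -0.31, Cox8b at 0.07 ± 0.58, Cox6a1 at 0.22 and Cox7a2 at 0.05. Skeletal muscle markers, given here beside the muscle forms, gave 4 of 11 called lower over the 5 doses (median -0.17), beside 19.3% of all genes called lower. Their group means were 8.05 to 8.41 at 1 week and 7.81 to 8.20 at 12 weeks.

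Other measures moved with the harvest, and their part in the lower oxidative phosphorylation levels was not tested beyond the values given here. With the poly-A level in the fit, 13 genes were called, all lower, and the median over the 5 doses was -0.05. In the water groups, whose poly-A means of 10.83 and 10.71 were closest, 1 gene was called higher and 14 lower with it, and the median was -0.12. After quantile normalization 3 genes were called higher and 36 lower over the 5 doses, with a median of -0.06. Of all genes tested, 2114 were then called higher and 3211 lower, with a median of -0.02. Ndufa5 was lower with the poly-A level (-0.51) and after quantile normalization (-0.35), and so was Cox7a1 (-0.33 and -0.48). Both genes passed in both fits. Ndufa4l2 lost its call with the poly-A level (limma's adjusted p = 0.0784). Cox8b lost its call with the poly-A level and also with the RNA integrity number. After quantile normalization Ndufa4l2 and Cox8b kept their calls. With the RNA integrity number in the fit 43 genes were called. For the fits with a covariate, the share of all genes called is not given. Their counts of oxidative phosphorylation genes therefore stand without that comparison.

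Markers of other cells were also lower at 12 weeks over the 5 doses, where 37.7% of all genes were called and 19.3% called lower. This held for 9 of 10 fibroblast markers (median -0.52; group mean levels of 13.31 to 13.48 at 1 week and 12.50 to 13.05 at 12 weeks), 8 of 14 smooth muscle markers (-0.16; 13.51 to 13.70 and 13.27 to 13.65) and 6 of 8 macrophage markers (-0.31; 10.80 to 11.00 and 10.46 to 10.78). It also held for 10 of 10 liver markers (-1.58), whose group means were 8.61 in water, 8.05, 8.31 and 7.21 at 0.5, 2 and 10 ppm and 6.32 at 50 ppm at 1 week, and 6.04 to 6.30 at 12 weeks. At 50 ppm, where the liver level was 6.32 and 6.04, 24 oxidative phosphorylation genes were lower and 1 higher, beside 19.5% of all genes called. With the poly-A level in the fit, 2 were called at this dose, both lower. The part of the liver transcripts in these changes was not tested. Superficial urothelium markers were mixed, with 5 higher and 3 lower of 14, and so were basal ones, with 4 higher and 1 lower of 9. With the smooth muscle level in the fit 62 genes were called.

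Other mitochondrial and energy genes, from lists chosen with these data known, moved in part with them over the 5 doses. Of all genes, 37.7% were called in this comparison and 19.3% called lower. For the assembly factors, the calls in either direction were near the first share. Of 76 genes of the mitochondrial ribosome, which translates the subunits encoded in mitochondrial DNA, 45 were lower and none higher (median -0.13), among them Mrpl39 (-0.36), Mrps25 (-0.38) and Mrps15 (-0.30). Of 17 glycolysis genes 10 were lower and 1 higher (median -0.13), with Pgk1 at -0.28, Ldha at -0.25 and Eno3 at -0.49. Of 40 assembly factors, which build the complexes but are not part of them, 14 were lower and 2 higher (median -0.08), with Bcs1l at -0.35, Sdhaf4 at -0.33 and Cox19 at -0.28. Of 20 other carriers 7 were lower and 2 higher (median -0.07), including the ATP/ADP exchanger Slc25a4 (-0.26), cytochrome c1 (Cyc1, -0.16) and the acyl carrier Ndufab1 (-0.15). Cyc1 and Ndufab1 are also subunits of complexes III and I, and stand here because their symbols lie outside the rule.

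The remaining lists were balanced or leaned upward, beside the same 37.7% of all genes called. Of 22 citrate cycle and pyruvate dehydrogenase genes 6 were higher and 6 lower (median 0.06): Pdk4, a kinase that shuts off pyruvate dehydrogenase, rose by 0.69, and Mdh2 and citrate synthase (Cs) fell by 0.27 and 0.20. Of 19 fatty acid oxidation genes 2 were higher and 3 lower (median 0.03), with Cpt1a at 0.27, Acat1 at -0.23 and Slc25a20 at -0.20. Of 21 regulators of mitochondrial biogenesis 6 were higher and 2 lower (median 0.07), with the deacetylase Sirt1 at 0.57, the coactivator Ppargc1a at 0.31 and the receptor Esrra at 0.15. At 50 ppm and 12 weeks these 7 lists held 2 called genes among 212 tested (0.943%, against 4.06% of all genes), the assembly factor Tmem70, which acts on ATP synthase (0.46, adjusted p = 0.0471), and Mrpl51 of the mitochondrial ribosome (-0.32, adjusted p = 0.0375).

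From mouse to mouse within a group, oxidative phosphorylation genes varied together. Their median SD within groups was 0.139 and ran from 0.0849 to 1.07 in Cox8b. It was 0.258 over all genes and 0.183 over all genes at least as bright as the 10th percentile of members. Most members are brighter than that bar, so these sets are not matched in brightness. After group means were taken off, the median Pearson correlation of a pair of members over the 49 arrays was 0.455, against 0.00163 for all gene pairs, and 82.1% of 3081 pairs were above 0, against 50.3%. The correlation was 0.492 within the 1-week arrays and 0.408 within the 12-week arrays, and 0.383 without the 2 arrays farthest out (50 ppm, 1 week, replicate 2, and 0.5 ppm, 12 weeks, replicate 1). All points share an array, so its scaling and RNA quality enter each correlation. The pairs of all genes were not matched to the members in brightness either. Pairs of 1 complex had a median of 0.472 and pairs of different complexes 0.441. The median was 0.549 within complex V, 0.532 in complex III, 0.51 in complex I, 0.2 in complex IV and 0.15 in complex II.

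**Figure D5:**
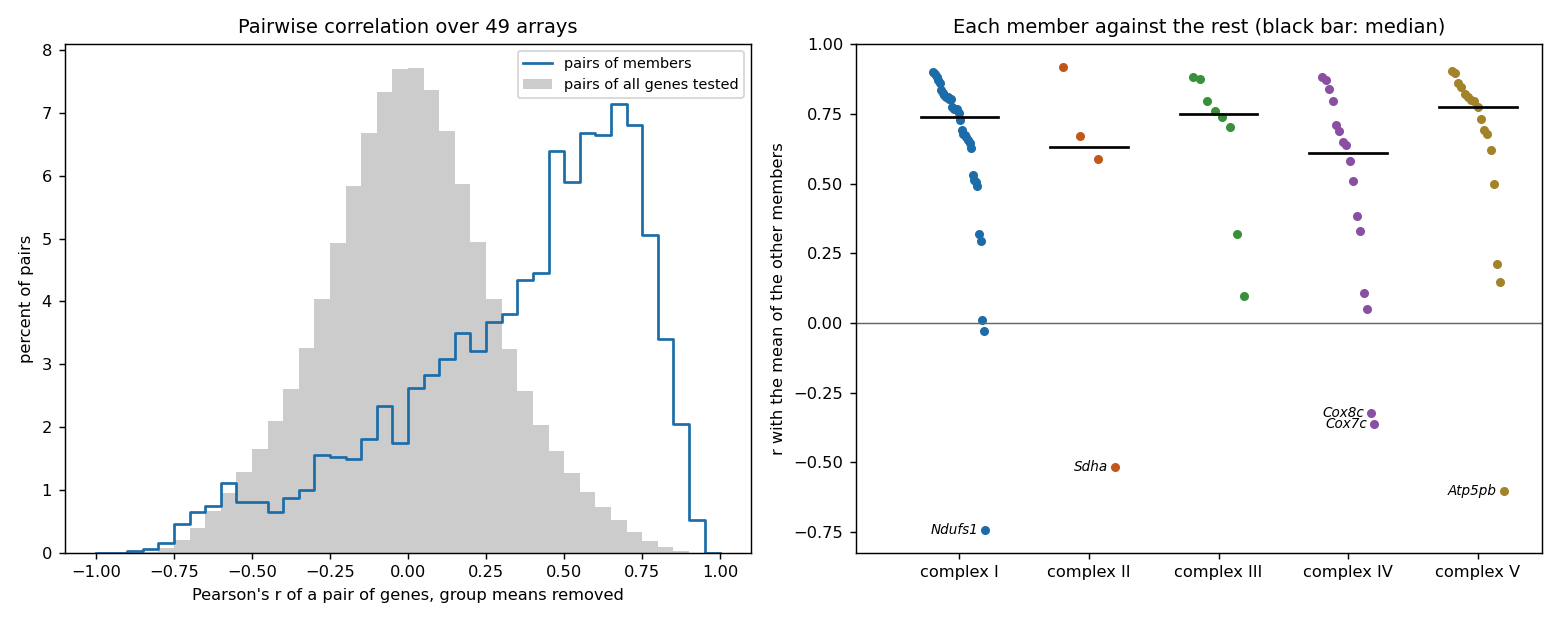
Left, percent of gene pairs by Pearson's r over 49 arrays after group means were taken off, for oxidative phosphorylation genes and all genes tested; right, r of each member with the mean of the others, by complex. Member pairs centre near 0.455 and all pairs near 0, and the 6 members below 0 include Ndufs1 (-0.74), Atp5pb (-0.60) and Sdha (-0.52).

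Of the 79 genes, 25 had a correlation of at least 0.8 with the mean of the others, 35 of 0.5 to 0.8, 13 of 0 to 0.5 and 6 below 0. The highest were Sdhb (0.918), Atp5k (0.903), Ndufb9 (0.901), Atp5e (0.897) and Ndufa8 (0.892). Of the genes with the NRF1 letters shown above, Sdhb, Atp5k and Ndufa8 are among these, while Ndufa6 stood at 0.629. The letters stand in 9 of the 66 genes with a listed promoter. Among those whose stretches are not shown, Atp5l stood at 0.862, Atp5g2 at 0.821 and Cox6a1 at 0.71. The stretches shown are a choice, and a link of the letters to these correlations was not tested. The members below 0 were Ndufs1 (-0.741), Atp5pb (-0.602), Sdha (-0.518), Cox7c (-0.362), Cox8c (-0.324) and Ndufs4 (-0.027). Sdha and Sdhb, which sit together in complex II, thus had opposite signs against the mean of the others. Their correlation with each other is not given. Their changes between harvests also differed in sign, but that of Sdha was not called and its probe sets gave both signs. Without the 2 farthest arrays Ndufs1 gave -0.66 and Sdha -0.38. Ndufa5, which had the smallest p in the water comparison of harvests, was near 0 (0.012).

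The genes outside the set most like the members' mean, by correlation over the same 49 arrays, were Ost4 (0.916), Ldha (0.89), Cisd1 (0.887), Uqcc2 (0.885) and Etfb (0.884). By list, the mean level of the mitochondrial ribosome correlated at 0.845, glycolysis at 0.789, other carriers at 0.634, assembly factors at 0.551 and superficial urothelium at 0.509, while smooth muscle was at 0.073, citrate cycle genes at -0.123 and biogenesis regulators at -0.553. Beside these, the poly-A level correlated at 0.397, the hybridization level at 0.379, the RNA integrity number at -0.131 and the mean of all genes at -0.41. These are descriptions of 49 arrays.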

How the data were processed

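The authors deposited, for every probe set of each Affymetrix Mouse430_2 array (a 1-colour platform), a linear intensity. Per the submitters' processing notes these come from GCOS 1.0; its settings: not given in the sources used here. On every array, the 2% trimmed mean was 500.003 to 500.004, so the signals had been scaled before deposit. Array medians still spanned 0.461 on the log2 scale.

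Signals were used as deposited, as log2(value + 16). A gene was represented by its single-gene probe set of highest mean and tested if at least 4 arrays had it above their 40th percentile. Of 45101 probe sets, 34945 had 1 gene symbol in the platform annotation, 932 several and 9160 none. Each harvest (24 and 25 arrays) was fitted with limma 3.58.1 in R 4.3.3 (lmFit, eBayes with a trend), and comparisons across harvests used all 49 arrays. Adjusted p-values are Benjamini-Hochberg values over 14624 genes and come from limma. They measure the spread between mice, and the number of arrays limits the precision.

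Named genes are, per comparison, the 4 largest called rises and falls, or the 2 smallest p-values where none was called, plus the SDH genes, the isoform pairs and, at 50 ppm and 12 weeks, the smallest p of each complex. Further members are named to account for each complex. The members, lists and rules were chosen with earlier results of these data known, and the harvest comparisons by dose and their mean were added after the water result had been seen. Correlations and complex medians carry no test. Replicate numbers did not pair arrays: of 96 same-numbered pairs 10 correlated above 0.1 (median 0.00227). Promoters were read from RefSeq's table for GRCm38.p6, and all 81 gene identifiers matched RefSeq. The fits were tested on simulated data. Python 3.11.15 with matplotlib 3.10.9 drew the figures. Alternatives were other offsets (1 and 64), quantile normalization, no filter or the 60th percentile, the mean of a gene's probe sets, array weights, all arrays in 1 fit, the replicate number as a block, covariates (RNA integrity number, poly-A, hybridization or smooth muscle level), arrays with an integrity number under 8 left out, other memberships, and each mouse left out in turn.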

Additional observations from a re-analysis of the deposited data

Results flagged for a closer look

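Among 200 sets of 4 or 5 mice checked for a value far from the rest (14 genes, the mean of each complex and the mean of all members, by group), 21 had one. Chance gives about 1 in 20 sets. Of these 21, 11 came from 3 mice. Replicate 2 of the 12-week water group was high in complex I (12.78, nearest other 12.60), complex III (13.40, nearest 13.16), complex V (13.64, nearest 13.48), Uqcrh (14.41, nearest 14.07) and Atp5mpl (13.10, nearest 12.92). Replicate 1 of the 0.5 ppm group of 12 weeks was low in complex I (12.33, nearest 12.52), Sdhb (12.60, nearest 12.93) and Atp5d (13.04, nearest 13.32), and high in Sdha (12.69, nearest 12.53). Replicate 3 of the 1-week water group was high in complex II (12.72, nearest 12.60) and Sdhb (13.62, nearest 13.42).

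The others were spread over groups. Ndufa4 was high in 2 ppm replicate 2 of 12 weeks (13.34, nearest 13.11). Ndufa4l2 was low in 2 ppm replicate 3 of 12 weeks (7.45, nearest 7.89). Ndufs1 was low in 10 ppm replicate 4 of 12 weeks (9.82, nearest 10.43). Sdha was low in 0.5 ppm replicate 2 of 1 week (12.37, nearest 12.49) and high in 50 ppm replicate 4 of 12 weeks (12.75, nearest 12.37). Atp5d was high in 10 ppm replicate 3 of 1 week (13.89, nearest 13.70). Cox7c was high in 50 ppm replicate 5 of 1 week (6.97, nearest 6.01). Cox8b, the muscle form of a complex IV subunit, was high in 12-week water replicate 3 (8.60, nearest 6.65), 2 ppm replicate 4 of 1 week (10.23, nearest 7.52) and 50 ppm replicate 4 of 12 weeks (7.49, nearest 6.72).

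The response to 50 ppm differed between harvests by limma's test for Atp5mpl (0.456, adjusted p = 0.00753) and Ndufv3 (-0.333, adjusted p = 0.0476).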

How the results depend on the processing

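Groups of 5 arrays limit the precision, and calls near the threshold moved with several choices. Where a value below has no cause named, the cause was not tested. Outside fits that left out a mouse, 224 of 269 counts stayed the same or within 1.5 times. Of 1069 medians, 1037 moved by less than the SD of the mean level between mice of a group (0.0697 to 0.108 by set). Many reported medians are of that size or smaller, so a median can shrink by much and still count as unmoved. With the poly-A level, that of 0.5 ppm at 12 weeks went from -0.143 to -0.063. Of 866 single-gene results 784 kept their sign and call, 58 lost the call, 17 gained it and 7 reversed. With the replicate block, 2 members were called at 50 ppm and 12 weeks in place of 1, and no other count of members moved by over 1.5 times. The numbers do not pair mice.

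At 1 week, array weights called 4 members at 10 ppm, 1 at 50 ppm and 1 in the dose trend, and the integrity number as a covariate called 1 at 10 ppm, where complex II went from -0.144 to -0.217. Ndufs8 at 0.5 ppm reversed to 0.016 with the mean of its probe sets. At 12 weeks and 0.5 ppm, the mean of probe sets called 1 member, and complex V moved to -0.035 under quantile normalization. At 2 ppm complex V moved to 0.008 with the poly-A level. At 10 ppm, array weights and all arrays in 1 fit called 2 members each, all lower, and the poly-A level 2, both higher, with medians of 0.199 over members and 0.098, 0.102, 0.203, 0.235 and 0.268 in complexes I to V. The hybridization level gave -0.118 over members and -0.173 in complex IV.

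At 50 ppm and 12 weeks, quantile normalization, array weights and all arrays in 1 fit called 4 members each, the 60th percentile 3 and the hybridization level 2. No filter, the mean of probe sets and the covariates integrity number, poly-A and smooth muscle called 0. With the poly-A level the medians were 0.15 over members and 0.069, 0.105, 0.163, 0.213 and 0.236 in complexes I to V, and Cox7a2l and Sdhc reversed to 0.044 and 0.06. With the hybridization level complex V was at -0.07. Uqcrb reversed to -0.072 (quantile), -0.057 (mean of probe sets), -0.009 (hybridization) and -0.029 (smooth muscle). The 12-week trend had 6 calls (quantile), 5 (mean of probe sets), 8 (array weights), 7 (1 fit) and 0 with the poly-A or hybridization level. The difference between harvests had 4 (quantile), 5 (hybridization) and 1 each (no filter, integrity number, poly-A with a median of 0.094, smooth muscle).

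Between harvests in water, the hybridization level left 6 calls, with complexes IV and V at -0.05 and -0.026, and the smooth muscle level 3. By dose, quantile normalization left 11 calls at 0.5 ppm (median -0.081) and a median of -0.093 at 2 ppm. Poly-A left 14, 4 and 2 calls at 0.5, 2 and 50 ppm, with medians of -0.062 at 2 ppm and -0.05 at 50 ppm and 0.08 at 10 ppm, a change of sign. Hybridization left 14 at 0.5 ppm. The integrity number left 1 at 2 ppm and 3 at 10 ppm, and leaving out arrays with a number under 8 left 0 at 2 ppm, where it leaves fewer arrays. Array weights gave 35 at 2 ppm and 22 at 10 ppm. Over the 5 doses, quantile normalization gave 39 calls and medians of -0.063 (members), -0.065 (complex IV) and -0.074 (complex V), and poly-A gave 13 calls and -0.054, -0.044 and -0.038. Of all genes tested, quantile normalization called 2114 higher and 3211 lower in this comparison, with a median of -0.024.

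Leaving out 1 mouse gave 0 to 1 calls at 10 ppm and in the trend of 1 week, 0 to 1 at 0.5 and 10 ppm and 0 to 3 at 50 ppm of 12 weeks, 1 to 9 in the 12-week trend, 8 to 21 in water, 1 to 3 in the difference, and between harvests 12 to 32 at 0.5 ppm, 8 to 13 at 10 ppm and 10 to 27 at 50 ppm. In these fits no median of members or complexes moved by as much as the SD of its mean level between mice of a group.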
